A study of Mus musculus with 2 samples.

Results

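Interferon gamma and MHC class I genes were followed as 1 group of 32 genes in single-cell RNA sequencing of silica-exposed mouse lung. The members were 7 guanylate binding proteins (Gbp2 to Gbp8), 5 immunity-related GTPases (Iigp1, Irgm1, Irgm2, Igtp and Ifi47), 3 transcription regulators (Irf1, Irf8 and Nlrc5), 3 peptide transport and loading factors (Tap1, Tap2 and Tapbp), 5 immunoproteasome and activator subunits (Psmb8, Psmb9, Psmb10, Psme1 and Psme2), the class I molecules B2m, H2-K1 and H2-D1, and 6 enzymes, inhibitors or ligands (Ido1, Nos2, Socs1, Serpina3g, Ubd and Cd274). They were listed by name, with earlier results of these data known, out of 24417 genes listed in either count table. All 32 were read in both libraries. C57BL/6 mice, either WT or lacking the chemokine receptor gene Ccr2 (CCR2KO), received 400 mg/kg of silica into the trachea, and whole lungs were taken on days 3, 7 and 21. Every sample had silica, so no unexposed lung was available for comparison. Cells of each genotype were labelled with hashtag antibodies by suspension, pooled and captured on 1 BD Rhapsody cartridge, a microwell device that barcodes single cells.

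There was 1 library per genotype, so genotype and cartridge cannot be told apart. The replicates are hashtagged suspensions, 9 in WT and 8 in CCR2KO. No label used here ties a hashtag to an animal or a day, so every p-value measures the spread between tagged suspensions, which may be technical in part. Tags are grouped below by number only, as block 1 (tags 1 to 3), block 2 (tags 4 to 6) and block 3 (tags 7 to 9, or 2 tags in CCR2KO). The WT table held 687004588 reads in 17854 tagged cells and that of CCR2KO held 598871178 reads in 15955 tagged cells, and reads per tag ran from 56541715 to 94948946. After filters 16857 WT and 14882 CCR2KO cells remained. The 2 libraries shared 342 barcode numbers. Ccr2 itself ran from 53.9 to 102 reads per 1000000 reads (CPM) over the WT tags and from 1.45 to 4.42 CPM over the CCR2KO tags (log2 difference −4.80 ± 0.24 SE, adjusted p = 3.56e-10, edgeR quasi-likelihood test), in the direction of the labels.

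Interferon gamma is made mainly by NK and T cells and signals through its receptor and JAK kinases to switch on IRF1 and a wide set of defence genes. Guanylate binding proteins and immunity-related GTPases coat and disrupt vacuoles that hold intracellular pathogens. The class I pathway cuts cytosolic proteins in the immunoproteasome, carries the peptides into the endoplasmic reticulum through TAP, loads them with tapasin onto a heavy chain paired with beta-2 microglobulin, and shows them to CD8 T cells. NLRC5 is the transactivator of class I genes. Type I interferons induce many of the same genes through ISRE elements, whereas GAS elements are named for the response to interferon gamma.

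The 250 bases before the start site were available for 24 of the 32 members in the RefSeq table (build GRCm38.p6), 5 of them with a pair of start sites and counted once. A GAS match, spelled TTCNNNGAA on either strand, stood in 8 of these 24 promoters (33.3%), against 8.13% of all 27025 promoters of that length. An ISRE core match, spelled GAAANNGAA on either strand, stood in 10 of 24 (41.7%), against 8.18% of all promoters. A longer form of the core with 1 more A stood in 9 of 24 (37.5%), against 3.46%, and overlaps the core by construction. Neither motif stood in the promoters of H2-K1, H2-D1, Tap1 or Psmb9, whose levels are given below. Irf1 has another start site whose promoter held neither. Sequences, 5′ to 3′, are shown for some of the members that carry a motif, with the match in capitals. A match is a description of the letters and not a measured site.
B2m, the class I light chain, chr2:122147437-122147686, plus strand, ISRE core first base at −139: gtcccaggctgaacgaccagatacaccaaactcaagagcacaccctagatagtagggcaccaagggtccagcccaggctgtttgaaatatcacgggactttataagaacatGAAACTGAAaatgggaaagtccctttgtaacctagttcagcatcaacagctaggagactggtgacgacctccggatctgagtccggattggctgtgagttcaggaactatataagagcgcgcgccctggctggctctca
Gbp2, a guanylate binding protein, chr3:142620413-142620662, plus strand, ISRE core at −58: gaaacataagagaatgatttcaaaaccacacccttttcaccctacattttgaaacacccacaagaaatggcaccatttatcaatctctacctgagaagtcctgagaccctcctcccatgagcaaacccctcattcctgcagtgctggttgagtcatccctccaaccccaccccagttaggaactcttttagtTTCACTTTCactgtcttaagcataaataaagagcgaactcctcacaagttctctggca
Irf1, chr11:53769764-53770013, plus strand, GAS at −90: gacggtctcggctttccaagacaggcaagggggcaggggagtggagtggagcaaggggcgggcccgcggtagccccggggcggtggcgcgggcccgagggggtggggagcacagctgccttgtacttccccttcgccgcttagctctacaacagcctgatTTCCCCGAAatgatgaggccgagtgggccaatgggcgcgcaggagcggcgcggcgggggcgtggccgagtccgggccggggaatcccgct
Psmb8, an immunoproteasome subunit, chr17:34197945-34198194, plus strand, GAS at −97: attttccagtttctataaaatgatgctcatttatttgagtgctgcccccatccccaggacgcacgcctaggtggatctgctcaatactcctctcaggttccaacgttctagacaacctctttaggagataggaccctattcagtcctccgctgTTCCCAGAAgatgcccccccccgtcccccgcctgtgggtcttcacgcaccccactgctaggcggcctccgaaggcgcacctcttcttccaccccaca
Igtp, an immunity-related GTPase, chr11:58199306-58199555, plus strand, GAS at −45 and ISRE core at −34: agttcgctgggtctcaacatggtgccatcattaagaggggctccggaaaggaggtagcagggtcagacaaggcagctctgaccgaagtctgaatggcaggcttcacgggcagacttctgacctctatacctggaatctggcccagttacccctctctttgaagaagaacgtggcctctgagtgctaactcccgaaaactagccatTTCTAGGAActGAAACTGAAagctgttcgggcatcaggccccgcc
The pair of elements in Igtp lies within the last 45 bases before the start site, and Irgm2 carried the same pair at −75 and −64. Gbp5 and Gbp7 also carried both motifs.

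In the summed cells of a tag, most members fell with tag block in both libraries. In WT the level differed between tag blocks for 26 of the 32 members (edgeR quasi-likelihood F test, adjusted p under 0.05 over 19198 genes), where 12.1% of all genes passed. In CCR2KO it differed for 19 of 32, where 8.32% of all genes passed. Of the 26 in WT, 25 had a lower level in block 3 than in block 1, and Serpina3g, a serine protease inhibitor, was highest in block 2. DESeq2 called 27 and 23 members, and limma-trend on the mean of per-cell levels, which weights every cell equally, called 15 and 9. Without CCR2KO tag 7, which leaves 1 tag in block 3 with a spread taken from the other groups, the CCR2KO count was 11. In whole suspensions, fewer cells of a type and less RNA per cell cannot be told apart.

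The members were called lower at different steps in the 2 libraries. In WT, 2 members were lower in block 2 than in block 1 (0.234% of all genes), 24 in block 3 than in block 2 (4.9% of all genes) and 24 in block 3 than in block 1 (6.1% of all genes). The median log2 changes of the 32 members over these steps were −0.12, −0.70 and −0.78. In CCR2KO, 10 members were lower in block 2 than in block 1 (1.58% of all genes), 2 in block 3 than in block 2 (1.97% of all genes) and 19 in block 3 than in block 1 (4.51% of all genes), with medians of −0.46, −0.21 and −0.87. The medians over all genes lay near 0, for example −0.01 for block 3 minus block 1 in WT. The difference between libraries was tested gene by gene and is given with the class I molecules.

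**Figure D1:**
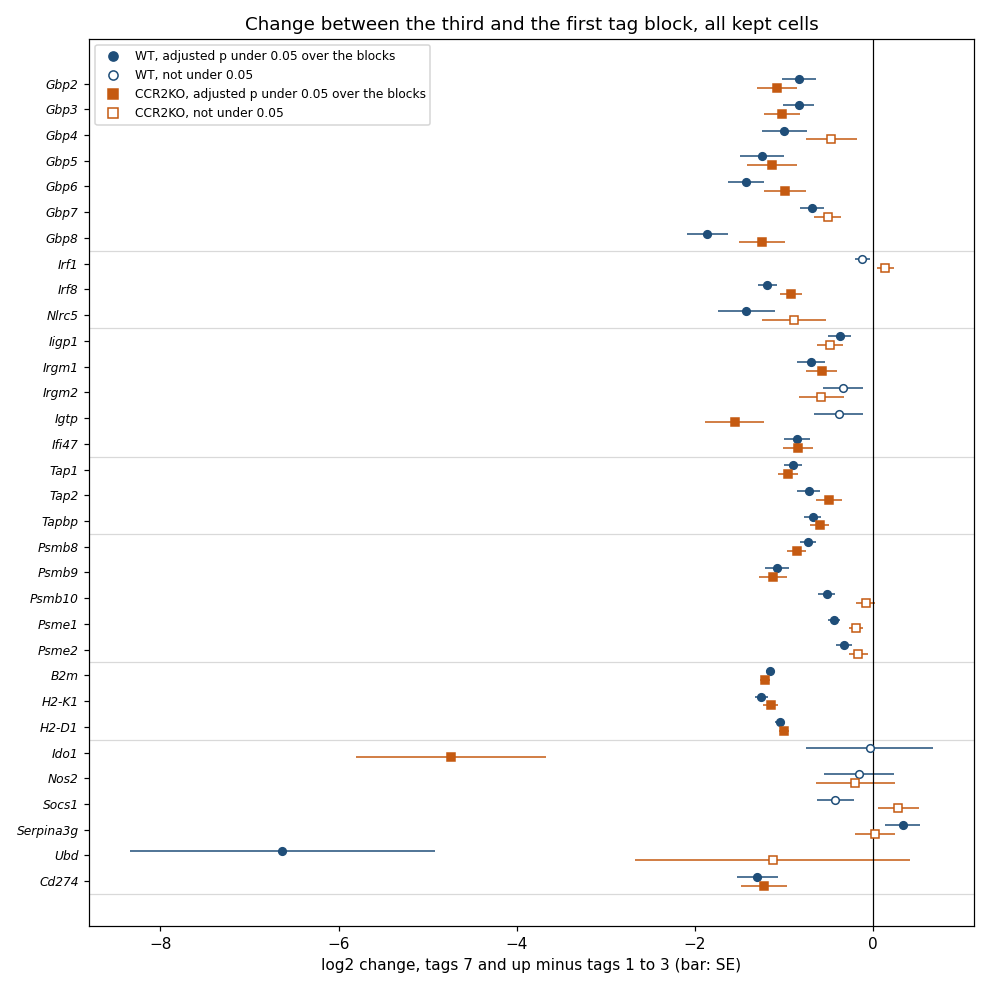
Log2 change of each of the 32 members in all cells from tag block 1 to block 3, with its SE as a bar, in WT (circles) and CCR2KO (squares); filled symbols passed over the blocks at an adjusted p under 0.05 (edgeR quasi-likelihood test). Filled symbols number 26 in WT and 19 in CCR2KO, and most lie left of 0.

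The class I molecules carried the clearest block pattern. B2m, which codes for beta-2 microglobulin, stood at 8126, 8568 and 8800 CPM in the WT tags of block 1, at 7553, 7339 and 7463 in block 2 and at 3851, 3745 and 3814 in block 3. In CCR2KO it stood at 6586, 6887 and 6506 CPM in block 1, at 3332, 3740 and 3821 in block 2 and at 2795 and 2944 in block 3. The blocks did not overlap within either library, and CCR2KO block 2 lay at the level of WT block 3. From block 1 to block 2, B2m changed by −0.19 ± 0.04 in WT and by −0.87 ± 0.04 in CCR2KO (log2 ± SE), and to block 3 by −1.16 ± 0.05 and −1.21 ± 0.05 (adjusted p over the blocks 2.05e-09 and 2.31e-09). The heavy chain H2-K1 ran at 1977, 1945 and 2131 CPM, then 1533, 1376 and 1596, then 880, 842 and 814 over the WT blocks. In CCR2KO it ran at 1890, 2148 and 2082 CPM, then 923, 1057 and 980, then 867 and 968. In WT the H2-K1 blocks stepped down in order without overlap, whereas in CCR2KO blocks 2 and 3 overlapped. The second classical heavy chain, H2-D1, ran at 2182, 2283 and 2329 CPM, then 1821, 1736 and 1846, then 1100, 1075 and 1110 over the WT blocks, and at 1901, 2059 and 1888, then 1037, 1143 and 1066, then 929 and 1018 in CCR2KO. Its blocks stepped down in order without overlap in both libraries, with CCR2KO block 2 near WT block 3.

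In all cells these 3 class I genes were also the only members called in the interaction F test of the same edgeR fit. This test asks whether the change between blocks differs between the libraries. At an unadjusted p under 0.05 there were 19 of the 32 members, beside 1882 of all 19198 genes, so the difference may not be limited to the 3 called. The adjusted p was 0.000299 for B2m, 0.00614 for H2-D1 and 0.0123 for H2-K1. They were 3 of 13 genes called among 19198, or 0.0677%. The other 10 called genes were Igf1, Vegfc, Ly6e, Pi15, Fn1, Fmod, Ifi44, Ifi27l2a, Mmp3 and Tnfrsf23. Equal tag numbers are not stated to be equal days in the 2 libraries, so this is a difference between tag numbers on 2 cartridges. With limma-trend on per-cell means no member was called.

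**Figure D2:**
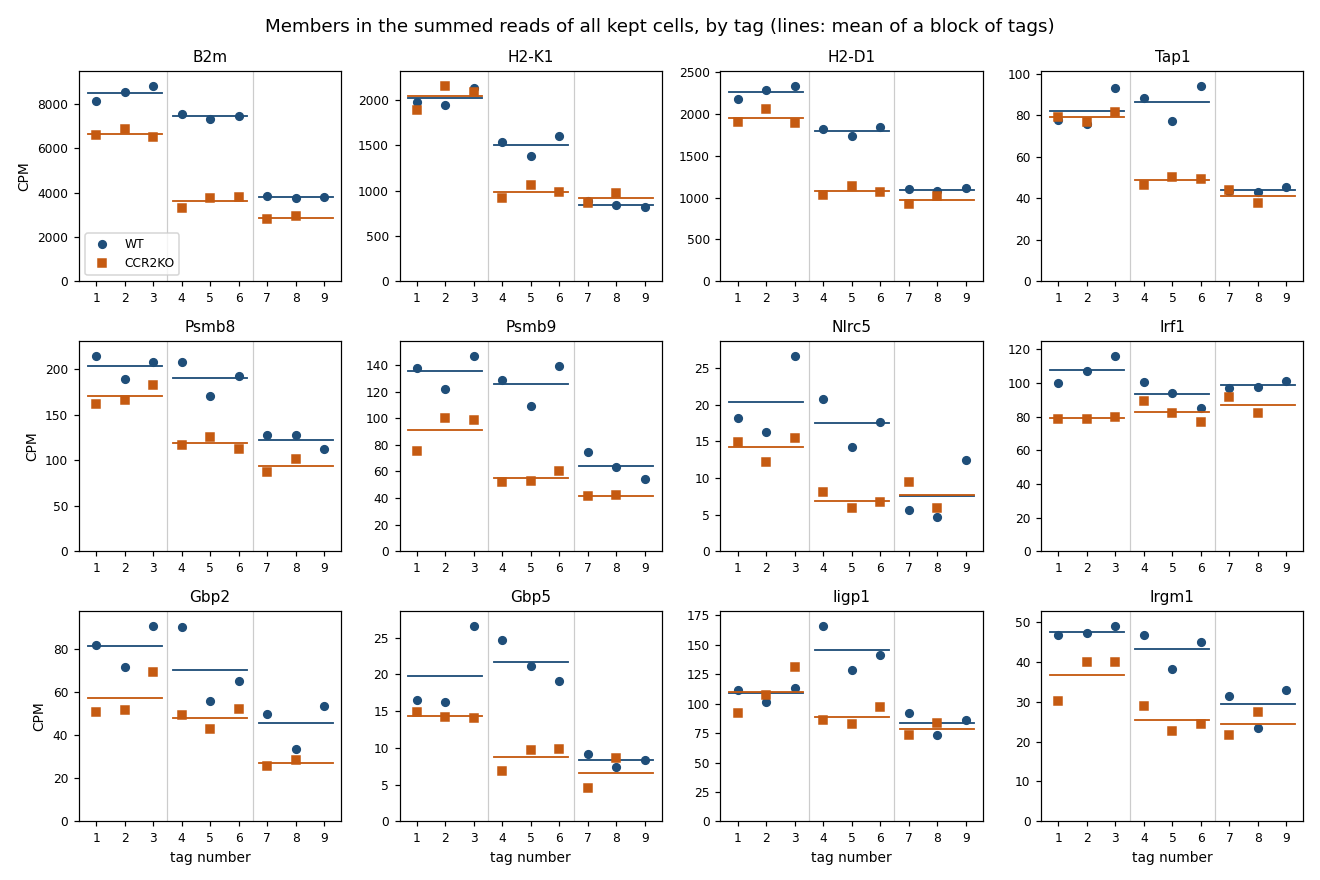
Level in CPM of 12 members in all cells of each hashtagged suspension, 9 in WT (circles) and 8 in CCR2KO (squares), by tag number, with lines at the mean of each tag block. B2m lies between 7339 and 8800 CPM in WT blocks 1 and 2 and between 3745 and 3851 in WT block 3, whereas the CCR2KO tags lie between 2795 and 3821 from tag 4 on.

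The factors that supply peptides to class I fell as well. Tap1, a subunit of the peptide transporter, stood at 77.8, 75.9 and 92.9 CPM in WT block 1, at 88.4, 77.2 and 93.8 in block 2 and at 43.5, 43.1 and 45.5 in block 3. The CCR2KO tags were at 79.1, 76.9 and 81.7 CPM, then 46.5, 50.4 and 49.1, then 44.1 and 37.8. The first 2 WT blocks overlapped and the third lay below both, whereas in CCR2KO both later blocks lay below the first. The change from block 1 to block 3 was −0.90 ± 0.10 in WT and −0.95 ± 0.11 in CCR2KO (adjusted p = 2.15e-05 and 0.000134), and the difference between libraries did not pass (adjusted p = 0.0667). Tap2, the other transporter subunit, changed by −0.72 ± 0.13 and −0.50 ± 0.14 over the same step, and Tapbp, which codes for tapasin, by −0.68 ± 0.09 and −0.60 ± 0.11. All 3 genes passed in both libraries. Psmb9, a catalytic subunit that replaces its constitutive counterpart in the immunoproteasome, stood at 138, 122 and 146 CPM, then 128, 109 and 140, then 74.6, 63.1 and 54.6 over the WT blocks. In CCR2KO the values were 75.3, 99.9 and 98.6 CPM, then 51.7, 52.8 and 60.7, then 41.6 and 42.0. Block 3 lay below block 1 without overlap in both libraries, and the changes were −1.08 ± 0.13 and −1.13 ± 0.15 (adjusted p = 0.000152 and 0.000582).

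Psmb8, a further catalytic subunit, ran at 214, 189 and 208 CPM, then 208, 171 and 193, then 128, 128 and 112 over the WT blocks, and at 162, 166 and 183, then 117, 126 and 113, then 86.6 and 101 in CCR2KO. Its block 3 lay below block 1 in both libraries (−0.73 ± 0.09 and −0.86 ± 0.11, adjusted p = 0.000161 and 0.000318). Psmb10, Psme1 and Psme2 passed in WT, with changes of −0.52 ± 0.10, −0.45 ± 0.07 and −0.33 ± 0.09 to block 3, and did not pass in CCR2KO, where the values were −0.08 ± 0.11, −0.20 ± 0.08 and −0.17 ± 0.10. That difference between libraries did not pass for any of the 3 (adjusted p = 0.429, 0.428 and 0.809). Psme1 and Psme2 code for the PA28 activator that opens the proteasome core. Psmb9 and Tap1 lie next to each other on opposite strands and the counting of strand is not stated, so their reads may not be fully separate.

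All 7 guanylate binding proteins differed between blocks in WT and 5 of 7 in CCR2KO, where Gbp4 and Gbp7 did not pass. Gbp2 stood at 81.9, 71.5 and 90.5 CPM in WT block 1, at 90.3, 55.8 and 65.0 in block 2 and at 49.9, 33.4 and 53.6 in block 3. The CCR2KO blocks ran at 50.7, 51.5 and 69.2 CPM, then 49.5, 42.7 and 52.3, then 25.7 and 28.4. Block 3 lay below block 1 in both libraries (−0.83 ± 0.19 and −1.08 ± 0.22, adjusted p = 0.0219 and 0.0172). The change to block 3 in WT ran from −0.69 ± 0.13 for Gbp7 to −1.86 ± 0.23 for Gbp8. Gbp6 changed by −1.43 ± 0.20 in WT and −0.99 ± 0.23 in CCR2KO, and Gbp5 by −1.25 ± 0.24 and −1.14 ± 0.28. Gbp4 and Gbp8 overlap each other or a neighbouring family member on the same strand, so their reads may be split between them.

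Of the immunity-related GTPases, Iigp1, Irgm1 and Ifi47 passed in WT and Irgm1, Igtp and Ifi47 in CCR2KO. Irgm1 stood at 46.6, 47.1 and 48.8 CPM, then 46.6, 38.1 and 44.8, then 31.5, 23.5 and 32.9 over the WT blocks. In CCR2KO it stood at 30.1, 39.9 and 39.9 CPM, then 28.8, 22.8 and 24.4, then 21.6 and 27.4. Block 3 lay below block 1 in both libraries (−0.70 ± 0.15 and −0.58 ± 0.17, adjusted p = 0.0138 and 0.0437). Iigp1 was highest in WT block 2, at 166, 129 and 142 CPM, against 112, 102 and 114 in block 1 and 92.3, 73.2 and 86.3 in block 3 (adjusted p = 0.00225). Irgm2 passed in neither library, and it overlaps Igtp on the same strand. For Igtp the 2 tags of CCR2KO block 3 stood apart, at 5.80 and 20.2 CPM.

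The transcription regulators did not move together. Irf8, needed for monocyte, dendritic cell and B cell development, fell from 204, 184 and 191 CPM in WT block 1 to 90.3, 84.8 and 78.3 in block 3, and from 178, 148 and 153 to 78.6 and 89.9 in CCR2KO (−1.19 ± 0.11 and −0.92 ± 0.12, adjusted p = 1.03e-05 and 0.000582). Nlrc5 stood at 18.2, 16.3 and 26.6 CPM in WT block 1, at 20.8, 14.3 and 17.6 in block 2 and at 5.61, 4.65 and 12.5 in block 3 (−1.42 ± 0.32, adjusted p = 0.017). In CCR2KO its values were 14.9, 12.2 and 15.5 CPM, then 8.06, 5.94 and 6.73, then 9.41 and 5.93, and the blocks did not pass (adjusted p = 0.0861). Irf1, a regulator induced early by interferon gamma, was at 99.7, 107 and 116 CPM, then 100, 94.0 and 85.1, then 97.1, 97.5 and 101 over the WT blocks. In CCR2KO it was at 78.7, 78.6 and 79.7 CPM, then 89.4, 82.2 and 76.5, then 91.6 and 82.0. The WT blocks overlapped, and in CCR2KO block 3 lay above block 1 and overlapped block 2, with changes to block 3 of −0.13 ± 0.08 and 0.14 ± 0.09 (adjusted p = 0.256 and 0.639). Socs1, an inhibitor of JAK signalling, and Nos2, the inducible nitric oxide synthase, also passed in neither library.

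Cd274, which codes for the checkpoint ligand PD-L1, fell from 49.7, 62.3 and 72.5 CPM to 24.4, 23.9 and 26.6 between WT blocks 1 and 3, and from 47.9, 52.4 and 45.7 to 13.1 and 28.6 in CCR2KO (−1.30 ± 0.23 and −1.22 ± 0.26, adjusted p = 0.00292 and 0.02). Ubd, a ubiquitin-like modifier, passed in WT (adjusted p = 0.0458) at 0 to 5.98 CPM per tag. Ido1, which breaks down tryptophan, was the rarest of the enzymes, at 0.246 to 2.84 CPM in WT, and passed in CCR2KO (adjusted p = 0.028), where both tags of block 3 were at 0.018 and 0.0292 CPM. All CCR2KO cells together held 267 Ido1 reads, so these values rest on very few reads, which are not independent molecules.

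The signal upstream of the members was read in the same suspensions. Ifng, the cytokine gene, stood at 7.03, 2.71 and 4.68 CPM in WT block 1, at 7.00, 4.46 and 4.00 in block 2 and at 1.07, 1.90 and 1.76 in block 3 (adjusted p = 0.0252). The CCR2KO tags were at 2.73, 3.38 and 5.87 CPM, then 1.35, 2.01 and 2.44, then 2.50 and 3.38 (adjusted p = 0.267). WT block 3 lay below both other WT blocks, and the CCR2KO blocks 1 and 3 overlapped. Neither receptor subunit passed, with adjusted p = 0.087 and 0.616 for Ifngr1 and 0.5 and 0.158 for Ifngr2.

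Genes around the members were counted in lists named in the methods below. In the interferon gamma pathway list, 5 of 18 genes passed over the WT blocks and 3 of 18 over the CCR2KO blocks. Of 17 further class I presentation genes, 9 and 8 passed, and every one called in the step from block 1 to block 3 was lower, 8 in WT and 7 in CCR2KO. Of 11 further GBP and IRG genes tested, 5 passed in each library. Of 19 type I interferon genes, 14 and 15 passed, and their median log2 change to block 3 was −1.03 in WT and −1.48 in CCR2KO. In contrast, of 15 constitutive proteasome genes 0 passed over the WT blocks by edgeR (2 at an unadjusted p under 0.05) and 3 in CCR2KO, all of them higher in block 2. These counts stand against the 12.1% and 8.32% of all genes that passed.

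The share of cell types also moved with tag block. T cell-like cells made up 4.63% of cells in WT block 1, 4.87% in block 2 and 1.64% in block 3, and 5.14%, 5.36% and 2.94% in CCR2KO. In NK cell-like cells Ifng had its highest mean. Their share was 2.43%, 2.62% and 1.72% over the WT blocks and 1.47%, 1.69% and 2.50% over the CCR2KO blocks. B cell-like cells made up 10.3% to 11.4% of a tag in WT block 1 and 2.96% to 4.33% in block 3, and on average 9.68% and 6.48% in CCR2KO, whereas general capillary endothelium-like cells went from 15.6% to 21.0% and from 14.4% to 19.4%. How far these shares carry the whole-suspension values was not tested there, and the same genes were therefore summed within each cell class.

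Cells were grouped into 33 clusters, without the members among the clustering genes, and clusters were named from markers as X-like. Within classes fewer members were called, and most calls were for the class I molecules. These are also the most read members. In WT, B2m, H2-K1 and H2-D1 took 0.667%, 0.146% and 0.173% of reads, and every other member at most 0.0297%. Fewer reads make a change harder to call, so the calls do not show that other members held level. Over the 22 classes tested in WT, 36 of 545 class-by-member tests passed, 23 of them for B2m, H2-K1 or H2-D1. In the 10 WT classes with a call, 0.0198% to 5.66% of all genes passed. In CCR2KO 20 of 530 passed, 16 of them for these 3 genes, and in its 8 classes with a call 0.0218% to 4.15% of all genes passed. B2m was called in 9 classes in WT and 7 in CCR2KO, H2-K1 in 8 and 4, and H2-D1 in 6 and 5. In 12 WT classes edgeR called no member (0.0248% of all gene tests in them passed), with 34 of 284 member tests at an unadjusted p under 0.05 and 22 called by DESeq2. In 14 CCR2KO classes edgeR called none (0.0458% of all gene tests), with 56 of 318 at an unadjusted p under 0.05 and 16 called by DESeq2.

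**Figure D3:**
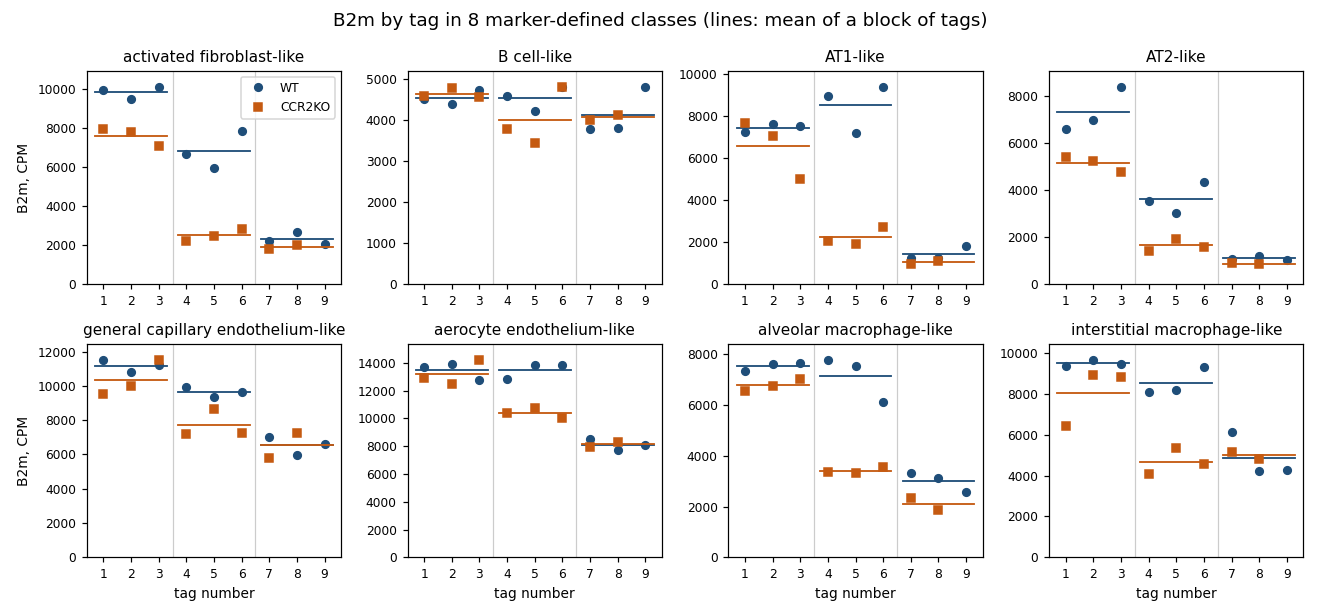
B2m level in CPM in each hashtagged suspension of WT (circles) and CCR2KO (squares) by tag number in 8 cell classes, with lines at the mean of each tag block. In AT2-like cells the WT tags run from 6578 to 8398 CPM in block 1 and from 1053 to 1211 in block 3, whereas B cell-like tags stay between 3438 and 4810 CPM in all blocks of both libraries.

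In AT2-like cells, the surfactant-secreting epithelium, 6 of 25 members tested passed in WT (1.99% of all genes) and 4 in CCR2KO (0.689% of all genes). B2m stood at 6578, 6980 and 8398 CPM in WT block 1, at 3527, 3051 and 4336 in block 2 and at 1082, 1211 and 1053 in block 3. In CCR2KO the values were 5396, 5238 and 4775 CPM, then 1437, 1917 and 1597, then 907 and 860. The 3 blocks were apart from each other in both libraries, with changes to block 3 of −2.71 ± 0.13 and −2.54 ± 0.15 (adjusted p = 3.22e-09 and 7.31e-09). H2-K1 changed by −1.88 ± 0.14 and −1.78 ± 0.17 and H2-D1 by −1.65 ± 0.11 and −1.49 ± 0.13 over the same step. Iigp1 stood at 118, 112 and 106 CPM in WT block 1, at 102, 14.9 and 59.0 in block 2 and at 1.25, 3.14 and 1.78 in block 3. In CCR2KO it went from 40.9, 74.9 and 84.5 CPM to 2.77 and 0.776 in block 3. Block 3 was the lowest in both libraries, without overlap (−5.76 ± 0.73 and −5.26 ± 0.84, adjusted p = 0.000531 and 0.00581). The block 3 levels of Iigp1 were low and counts are reads, not independent molecules, so the size of this change is uncertain. Psmb9 and Tap1 passed in WT with changes of −3.28 ± 0.51 and −2.47 ± 0.52. The summed level of the 8 AT2 markers stayed between 161540 and 188164 CPM in every tag of both libraries.

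In AT1-like cells, the flat gas-exchange epithelium, 4 of 21 members passed in WT (1.24% of all genes) and 3 in CCR2KO (0.172% of all genes), and the placing of the step differed between the libraries. B2m stood at 7252, 7626 and 7514 CPM in WT block 1, at 8986, 7202 and 9412 in block 2 and at 1265, 1262 and 1823 in block 3. The CCR2KO blocks ran at 7657, 7050 and 5011 CPM, then 2057, 1916 and 2719, then 969 and 1120. In WT blocks 1 and 2 overlapped and block 3 lay far below, whereas in CCR2KO both later blocks lay below the first. H2-K1 was at 3641, 2752 and 4247 CPM in WT block 2 and at 750, 921 and 1002 in CCR2KO block 2. The interaction passed for B2m (adjusted p = 0.0367), H2-D1 (0.0259) and H2-K1 (0.0407), and they were all 3 of the genes called in AT1-like cells (0.0344% of all genes). Each of these interaction calls was lost with a coarser clustering, with the members among the clustering genes, with predicted doublets kept and with limma-trend on per-cell means. Without single tags the count of 3 fell to 0 for 11 of the 17 tags and to 1 for CCR2KO tag 1 and WT tag 7. Psme1 had another shape in WT, at 580, 548 and 595 CPM in block 2 against 114 to 241 in block 1 and 130 to 247 in block 3 (adjusted p = 0.018). Tags held as few as 18 AT1-like cells in WT, and the 6 mesothelial markers in the class summed to 106 to 272, 175 to 392 and 351 to 465 CPM over the WT blocks and to 89.3 to 240 (block 1), 190 to 475 and 504 to 557 CPM over the CCR2KO blocks. They were highest in block 3 of CCR2KO. The 8 AT1 markers summed to 16441 to 20022, 9492 to 15976 and 11076 to 17064 CPM in WT and to 13274 to 20645, 8649 to 12049 and 9657 to 12906 CPM in CCR2KO, and the part of either list in the values of the members was not tested.

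In activated fibroblast-like cells, marked by collagen and matricellular genes, 10 of 28 members passed in WT (5.66% of all genes) and 4 in CCR2KO (4.15% of all genes). B2m stood at 9950, 9502 and 10140 CPM in WT block 1, at 6688, 5950 and 7844 in block 2 and at 2229, 2678 and 2084 in block 3. In CCR2KO it stood at 7961, 7833 and 7100 CPM, then 2206, 2501 and 2861, then 1832 and 2039. The 3 blocks were apart from each other in both libraries, with CCR2KO block 2 near WT block 3 (adjusted p = 2.18e-08 and 2.12e-08). The change to block 3 was −2.08 ± 0.11 and −1.98 ± 0.13 for B2m, −2.63 ± 0.20 and −2.61 ± 0.24 for H2-K1 and −2.62 ± 0.13 and −2.55 ± 0.16 for H2-D1. Tap2, Ifi47, Gbp6, Tap1, Tapbp, Psmb10 and Iigp1 also passed in WT, with changes from −2.28 ± 0.39 for Tap2 to −0.62 ± 0.24 for Iigp1. Psmb9 was the fourth member in CCR2KO, where it fell from 44.9, 47.5 and 29.8 CPM to 2.37 and 2.55 (adjusted p = 0.000599).

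The named members that did not pass in activated fibroblast-like cells included Gbp2, with −1.75 ± 0.45 in WT (adjusted p = 0.0626), Irf1 with −0.77 ± 0.27 (0.17), Irgm1 with −0.76 ± 0.46 (0.374), Psmb8 with −0.45 ± 0.34 (0.718) and Nlrc5 with −3.53 ± 1.25 (0.22). The interaction passed for B2m (adjusted p = 0.0134) and H2-D1 (0.0311), 2 of the 3 genes called (0.0236% of all genes), the third being Igfbp7. That count of members was 0 without CCR2KO tag 4 or 5 or WT tag 4 or 6, and the count of 10 over the WT blocks was 6, 5 and 4 without WT tags 4, 7 and 9. The class joined 2 clusters, and the share of the smaller one, led by Saa3 and Saa1, was 2.84% to 9.89% in WT blocks 1 and 2 and 28.2% to 34.3% in block 3, and went from 7.77% to 12.3% in CCR2KO block 1 to 39.1% to 49.2% in block 3. Within the larger cluster alone, B2m ran from 9890 to 10191 CPM in WT block 1, from 6010 to 7895 in block 2 and from 2088 to 3076 in block 3. In CCR2KO it ran from 7531 to 8198, from 2212 to 2857 and from 1690 to 1976 CPM. The order of the blocks in the larger cluster was that of the whole class. In the smaller cluster, with as few as 5 cells in a tag, B2m ran from 4132 to 5869, from 3239 to 5626 and from 1794 to 2056 CPM over the WT blocks, and from 5635 to 6579, from 2894 to 3367 and from 1954 to 2065 CPM over the CCR2KO blocks. There WT blocks 1 and 2 overlapped. The 8 activated fibroblast markers summed to 9932 to 14031, 16348 to 17732 and 7014 to 8910 CPM over the WT blocks and to 12345 to 13527, 14465 to 14582 and 8492 to 8749 CPM over the CCR2KO blocks, so block 3 was lowest in both libraries. The 8 adventitial fibroblast markers in these cells summed to 2708 to 3386, 1992 to 2758 and 1046 to 2278 CPM in WT and to 2974 to 3619, 1995 to 2202 and 1324 to 1396 CPM in CCR2KO. The part of these marker levels in the values of the members was not tested.

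In alveolar macrophage-like cells 4 of 27 members passed in WT (2.9% of all genes) and 4 in CCR2KO (1.75% of all genes). B2m stood at 7331, 7599 and 7642 CPM in WT block 1, at 7779, 7531 and 6099 in block 2 and at 3311, 3105 and 2577 in block 3. The CCR2KO tags were at 6535, 6753 and 7021 CPM, then 3377, 3307 and 3547, then 2322 and 1869. The first 2 WT blocks overlapped, and in CCR2KO no blocks did (adjusted p = 9.31e-07 and 4.4e-07). H2-K1 changed by −1.10 ± 0.12 and −1.09 ± 0.13 to block 3, and H2-D1 by −0.91 ± 0.10 and −1.19 ± 0.11. Cd274 passed in WT, at 43.8, 74.8 and 98.3 CPM in block 1, 80.5, 117 and 150 in block 2 and 34.2, 30.1 and 39.1 in block 3 (adjusted p = 0.006). Gbp6 passed in CCR2KO, falling from 16.5, 26.9 and 17.2 CPM to 0.774 and 1.34 (adjusted p = 0.0252). The interaction passed for H2-K1 (adjusted p = 0.0103), B2m (0.0145) and H2-D1 (0.0148), 3 of 29 genes called (0.258% of all genes), and the count of members was 0 with the members among the clustering genes or with doublets kept, and 1 without CCR2KO tag 5 or WT tag 5. The summed level of 7 scar-type macrophage markers in these cells went from 1844 to 3877 CPM in WT block 1 to 5826 to 14939 in block 2 and 6009 to 11500 in block 3. In CCR2KO it was 4704 to 11002, 23355 to 28438 and 7929 to 10047 CPM, highest in block 2. The 9 alveolar macrophage markers summed to 18988 to 19605, 16053 to 26071 and 17138 to 17636 CPM in WT and to 18341 to 19977, 13186 to 17555 and 19533 to 20869 CPM in CCR2KO, lowest there in block 2. In the clustering that used the members, a cluster of 12 WT and 102 CCR2KO cells with 5 scar-type macrophage markers among its leading genes stood apart and stayed unnamed, and with doublets kept a like cluster held 13 and 102 cells. The part of these cells and marker levels in the class I values was not tested.

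Smaller sets passed in other classes. In general capillary endothelium-like cells B2m, H2-K1 and Iigp1 passed in WT, 3 of 31 members (0.971% of all genes), and B2m in CCR2KO (0.673% of all genes), with B2m changing by −0.77 ± 0.09 and −0.66 ± 0.10 to block 3. In interstitial macrophage-like cells the 3 class I genes passed in WT (0.154% of all genes) and B2m and H2-D1 in CCR2KO (0.625% of all genes), with B2m changing by −0.96 ± 0.15 and −0.69 ± 0.17. In alveolar fibroblast-like cells the 3 class I genes passed in WT (0.266% of all genes), with −1.17 ± 0.14 for B2m, and none in CCR2KO, where B2m had −0.97 ± 0.16 (adjusted p = 0.0501). B2m passed alone in aerocyte endothelium-like cells in WT (0.0546% of all genes) and in CCR2KO (0.0218% of all genes), with −0.73 ± 0.07 and −0.70 ± 0.08, and in smooth muscle or pericyte-like cells in WT (0.148% of all genes), with −1.34 ± 0.18. H2-K1 passed alone in adventitial fibroblast-like cells in WT (0.0198% of all genes), with −1.67 ± 0.25. In classical monocyte-like cells of CCR2KO, Gbp7 was 1 of 26 members to pass, no larger a share than the 4.15% over all genes. It was at 158, 55.6 and 121 CPM in block 1 and at 0 to 1.51 CPM in the 5 other tags, on few cells per tag.

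Lymphocytes gave the smallest estimates. The B2m change from block 1 to block 3 was −0.14 ± 0.11 in WT and −0.19 ± 0.13 in CCR2KO in B cell-like cells, −0.44 ± 0.09 and −0.15 ± 0.10 in T cell-like cells and −0.41 ± 0.15 and 0.14 ± 0.17 in NK cell-like cells, and none passed. In neutrophil-like cells it was −0.66 ± 0.16 and −0.88 ± 0.18, and it did not pass either. Ordered by this change in WT, AT2-like (−2.71 ± 0.13), AT1-like (−2.36 ± 0.21) and activated fibroblast-like cells (−2.08 ± 0.11) came first and B cell-like cells last. The difference between classes was not tested, because the classes come from the same suspensions and from clustering the same cells. Cells entered only with a hashtag, and the hashtag antibodies bind CD45 and MHC class I itself. The part of this tagging in the class I values of each class was not tested.

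Outside the 3 lead classes for the interaction, edgeR called no member in the other 17 classes (0.00653% of all gene tests), with 38 of 423 member tests at an unadjusted p under 0.05. DESeq2 was not run for the interaction.

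Between the libraries as a whole, members were lower in CCR2KO than in WT where they passed. In all cells 7 of 32 members were called and all 7 were lower, where 6.47% of all genes were lower, and the median over the 32 members was −0.41 log2. They were Gbp3 (−0.80 ± 0.22, adjusted p = 0.0228), Nos2 (−0.80 ± 0.22, 0.0232), Psmb9 (−0.73 ± 0.23, 0.044), Gbp4 (−0.72 ± 0.22, 0.0381), Gbp7 (−0.56 ± 0.15, 0.0161), Psmb10 (−0.44 ± 0.10, 0.00671) and Irf1 (−0.28 ± 0.06, 0.00517). Irf1 was at 85.1 to 116 CPM over the WT tags and at 76.5 to 91.6 over the CCR2KO tags, so the tags overlapped. B2m (−0.52 ± 0.23, adjusted p = 0.166), H2-K1 (−0.09 ± 0.24, 0.866), Gbp2 (−0.51 ± 0.20, 0.124), Irgm1 (−0.45 ± 0.16, 0.0742), Psmb8 (−0.39 ± 0.16, 0.141) and Nlrc5 (−0.62 ± 0.31, 0.215) did not pass. Without WT tag 8 the count of members called was 13. Cell shares differed between the libraries as well. Classical monocyte-like cells averaged 7.00% of a tag in WT and 1.23% in CCR2KO, and scar-type macrophage-like cells 5.54% and 0.987%. AT2-like cells averaged 5.43% in WT and 10.5% in CCR2KO. The part of these shares in the whole-suspension values was not tested.

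With tag block as a covariate, 23 members were lower in CCR2KO (10.6% of all genes were lower) and Serpina3g was higher (0.46 ± 0.12, adjusted p = 0.0088), and B2m then had −0.61 ± 0.08 (adjusted p = 2.85e-05). Within blocks, 9 members were lower in block 1 (4.29% of all genes), 21 in block 2 (5.74% of all genes) and 4 in block 3 (3.12% of all genes). Cells of the 2 libraries were not read alike. At 5000 reads per cell, 849 ± 50.5 genes were detected in WT (SD over tags, n = 9) and 738 ± 26.4 in CCR2KO (n = 8). By block the means were 826, 909 and 813 genes in WT and 732, 762 and 712 in CCR2KO. At this depth the mean share of cells with a read was higher in WT for 31 of the 32 members. The part of these differences in the lower CCR2KO values and in the block pattern was not tested. In the lists, 15 of 19 type I interferon genes were lower in CCR2KO (median −1.14) and 0 of 17 further class I presentation genes were called by edgeR (4 at an unadjusted p under 0.05). Within blocks, 1 of these 17 genes was higher in CCR2KO in block 1, 3 were higher and 6 lower in block 2, and 0 were called in block 3 (4 at an unadjusted p under 0.05), where 8.3%, 10.1% and 4.57% of all genes were called in either direction.

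**Figure D4:**
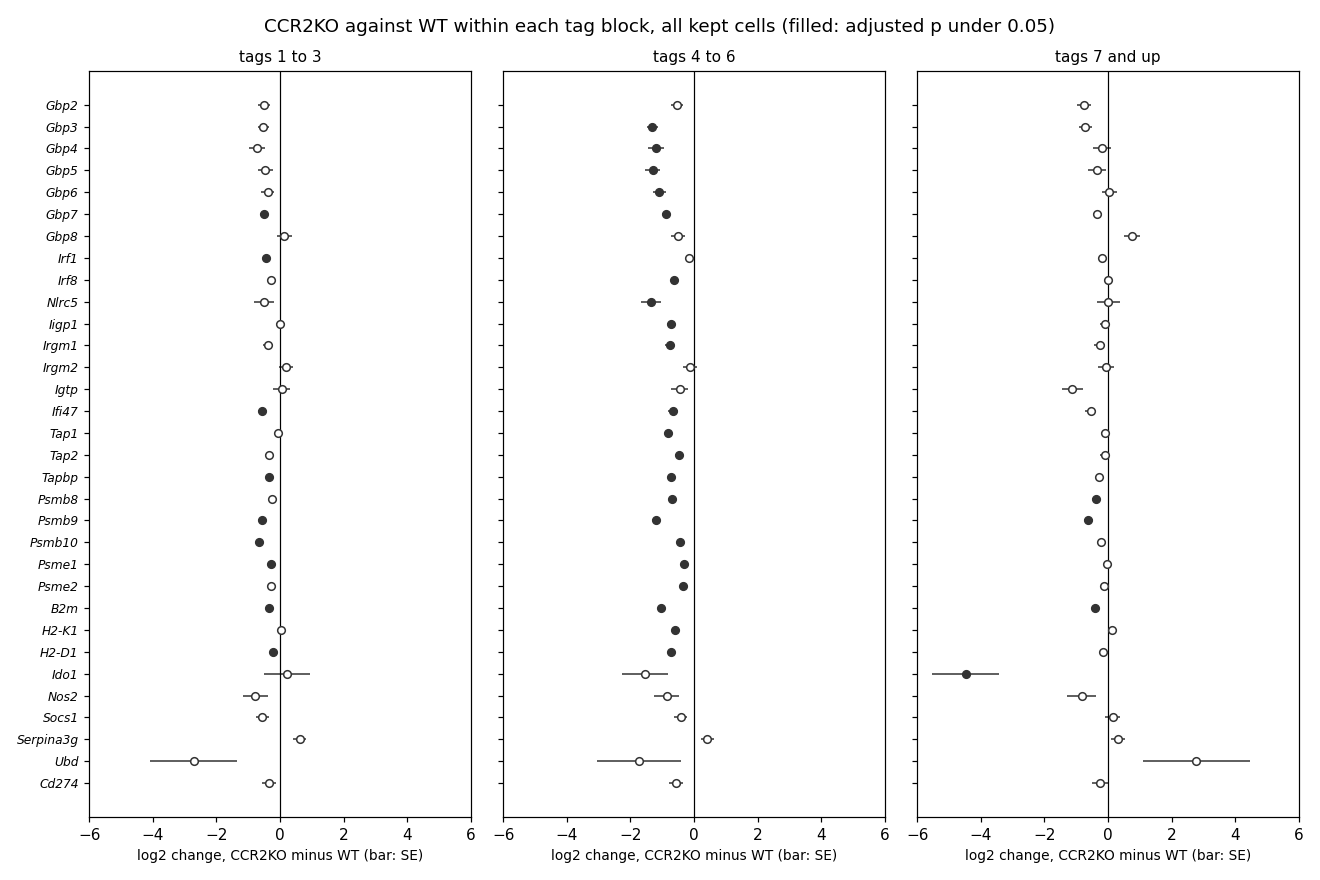
Log2 difference CCR2KO minus WT of each member in all cells within tag block 1, 2 and 3, with its SE as a bar; filled circles have an adjusted p under 0.05 (edgeR quasi-likelihood test). The number of members called lower is 9 in block 1, 21 in block 2 and 4 in block 3.

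Within classes 2 of 603 class-by-member tests passed between the libraries, both in classical monocyte-like cells. There they were 2 of 26 members tested, where 284 of 8063 genes (3.52%) were lower. So few calls are not read as a result about the members as a group. Gbp4 ran from 1.65 to 26.0 CPM over the 9 WT tags and Nlrc5 from 6.49 to 63.2 CPM, and both were at 0 reads in all 8 CCR2KO tags (adjusted p = 0.00189 and 0.00161). In WT 25 of 1181 such cells held a Gbp4 read (2.12%) and 60 an Nlrc5 read (5.08%), against 0 of 184 cells in CCR2KO, which allows a share of up to 1.63%. Counts are reads and not independent molecules, so no fold is given. Median reads per cell were 26480 in WT and 18112 in CCR2KO. The CCR2KO cells of the class had more of the 8 nonclassical monocyte markers, at 2654 to 5650 CPM summed against 921 to 2109 CPM in WT, and less of the classical ones, at 5421 to 11646 CPM without Ccr2 against 10337 to 16220. The part of this in both zeros was not tested. Both calls could not be made with at least 30 cells per tag, since the CCR2KO tags hold too few, and the count was 1 without any single WT tag and 5 and 4 without CCR2KO tags 2 and 4. In the 24 other classes edgeR called no member (0.195% of all gene tests), with 53 of 577 at an unadjusted p under 0.05, and DESeq2 called 7 in 5 of them.

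Across classes, the members sat in different cells, given here as mean CPM ± SD over tags of both libraries with no test. Plasmacytoid dendritic cell-like, plasma cell-like, mast or basophil-like and mesothelial-like cells were left out, as too few tags held enough of them. B2m was highest in aerocyte endothelium-like cells at 11089 ± 2348 CPM, above general capillary endothelium-like cells at 8719 ± 1891 in 17 of 17 tags, and lowest in club-like cells at 1031 ± 803, a mean over 11 tags that held enough of them, 8 of CCR2KO and 3 of WT, all 3 from WT block 3. Mature dendritic cell-like cells had the highest mean of Tap1, Tap2, Tapbp, Psmb8, Psmb9, Psme1 and Psme2, while Psmb10 was highest in aerocyte endothelium-like cells at 207 CPM. Psme2 stood at 1325 ± 267 CPM in mature dendritic cell-like cells against 401 ± 127 in conventional dendritic cell-like cells, higher in 15 of 15 tags, and Psmb8 at 922 ± 258 against 537 ± 132, higher in 14 of 15. Nlrc5 was also highest there, at 104 ± 59.3 CPM. H2-K1 and H2-D1 had their highest means in NK cell-like cells, above the next class in 8 of 13 and 12 of 17 tags.

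Irf8 was at 2707 ± 627 CPM in NK cell-like cells, above conventional dendritic cell-like cells at 827 ± 385 in 16 of 17 tags. Irf8 is best known from the development of dendritic cells. The plasmacytoid dendritic cell-like class, with 65 cells in WT and 56 in CCR2KO, is not in this order. Cd274 was highest in neutrophil-like cells, at 389 ± 247 CPM, next to 279 ± 124 in mature dendritic cell-like cells, and the order held in 10 of 15 tags. By the mean share of cells with a read, without thinning, the order was reversed, at 19.2% and 47.1%. Nos2, often described in activated macrophages, was highest in aerocyte endothelium-like cells at 62.6 ± 37.9 CPM, above general capillary endothelium-like cells in 16 of 17 tags. Iigp1 was highest in activated fibroblast-like cells at 311 ± 113 CPM, and Irgm1, Gbp4 and Ifi47 in general capillary endothelium-like cells. The class with the highest mean was above the next in 8 of 15 tags for Gbp2, 4 of 13 for Gbp3, 5 of 17 for Gbp6 and 6 of 13 for Gbp7. Ifng, the ligand, was at 193 CPM in NK cell-like cells and 45.9 CPM in T cell-like cells, higher in the former in 15 of 17 tags.

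**Figure D5:**
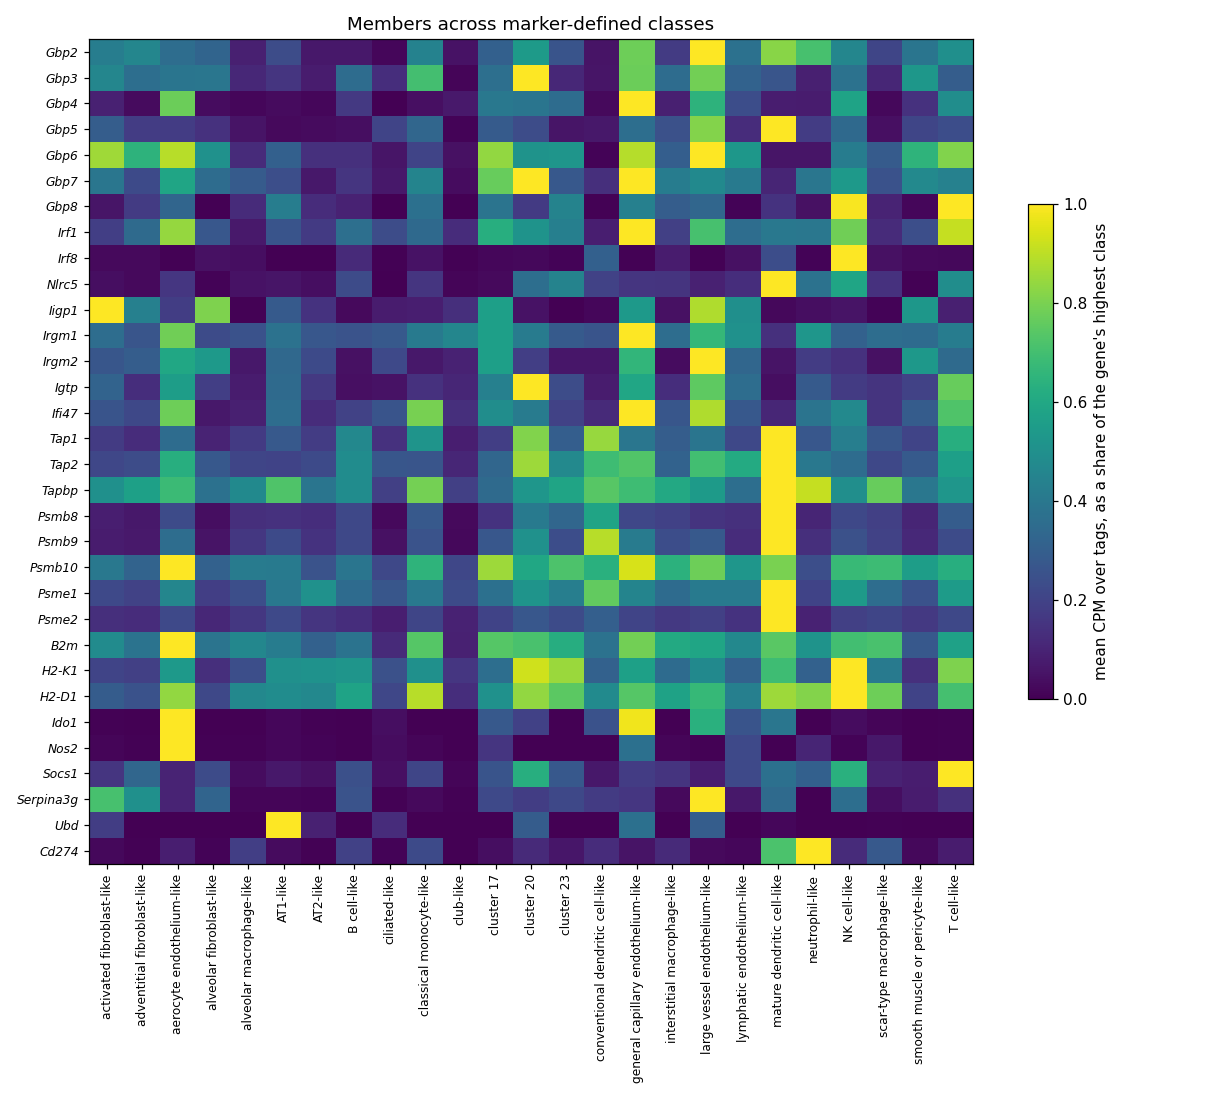
Mean level over tags of each of the 32 members by cell class, scaled to the class with the highest mean of that gene, so that rows cannot be compared with each other. Classes with too few cells per tag, such as plasmacytoid dendritic cell-like cells, are not shown. Among the classes shown, B2m peaks in aerocyte endothelium-like, Psme2 and Psmb8 in mature dendritic cell-like, Irf8 in NK cell-like and Iigp1 in activated fibroblast-like cells.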

How the data were processed

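The data were 2 tables of whole-number counts per gene and cell, 1 per genotype, deposited by the authors with a hashtag in each cell's name. The counts were treated as reads, not molecules, since the median non-zero value was 9 in WT. Depth per tag is given in the results. The submitters' processing notes name cutadapt 2.10, Bowtie2 2.4.2, R 3.6.3 and GRCm38; the counting rule and strand are not given in the sources used here. Columns of cells with several tags and 2 columns of no tag were not used. Mouse hashtag antibodies of this product bind CD45 and MHC class I, and only cells with a hashtag were used. The part of this in the class I levels, cell shares and tag blocks was not tested.

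Kept cells had at least 200 genes detected, and mitochondrial reads made up at most 25%; doublets called by Scrublet (2.148% in WT and 2.208% in CCR2KO) were left out. Scanpy 1.11.5 and leidenalg 0.10.2 clustered 2000 variable genes (40 components, 20 neighbours, resolution 1.5) without the members and Ccr2. Clusters were named from marker lists, and 3 (17, 20 and 23) stayed unnamed. Classical monocyte-like cells also carried nonclassical markers.

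Reads were summed per tag and class (at least 10 cells per tag, 3 tags per library, 2 per block) and tested with edgeR 4.0.16 (filterByExpr, TMM, quasi-likelihood F test, two-sided, R 4.3.3), with Benjamini-Hochberg adjustment over all genes of the class and a threshold of 0.05. Tag blocks and the interaction came from 1 fit with 6 groups. Reported CPM use TMM-scaled totals, and CPM across classes, within clusters and of marker sums use plain totals. DESeq2 1.42.0 and limma 3.58.1 were alternatives. The tests were checked on simulated data. Lists were interferon gamma pathway, other class I presentation, other GBP and IRG, constitutive proteasome and type I interferon genes. The members and lists were chosen with earlier results of these data known. Members past the threshold were named by the largest change, up to 8 per class, and Gbp2, Irf1, Irgm1, Psmb8, B2m, H2-K1 and Nlrc5 in any case. Intervals and floors cover counting error only.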

Additional observations from a re-analysis of the deposited data

Results flagged for a closer look

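In all cells, Ido1 was at 2.844 CPM in WT tag 4 and at 1.199 CPM or less in the other 8 WT tags, a gap beyond Dixon's limit. It was the only one of 64 groups of tags that passed this limit. The limit is set for about 5% of groups to pass by chance. Each group here held all tags of a library, over blocks that differed for many members, so that rate need not hold.

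The change between tag blocks differed between CCR2KO and WT, by an interaction test in edgeR, for the class I molecules. In all cells the adjusted p was 0.000299 for B2m, 0.00614 for H2-D1 and 0.0123 for H2-K1. In AT1-like cells it was 0.0367 for B2m, 0.0259 for H2-D1 and 0.0407 for H2-K1. In activated fibroblast-like cells it was 0.0134 for B2m and 0.0311 for H2-D1. In alveolar macrophage-like cells it was 0.0145 for B2m, 0.0148 for H2-D1 and 0.0103 for H2-K1. In each of these 4 settings CCR2KO tags 4 to 6 lay below WT tags 4 to 6. No label used here says that these tags stand for the same day.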

How the results depend on the processing

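Of 117 called results of single members none changed sign, which was read on 1 step (the largest between blocks, or block 1 to 2 for the interaction): of 833 values under other settings 751 kept their side of the threshold and 82 no longer passed, and of 1980 without single tags 1741 did and 239 no longer passed. In all cells, the 7 members called between libraries became 24 with tag block as a covariate (23 lower and Serpina3g higher in CCR2KO), 21 within block 2 and 4 within block 3, and 5 to 13 without single tags. With tag number as a replicate block 22 members were called, and 8 against 2 in the sum over classes; same-numbered tags correlated from 0.0062 to 0.38 over 14247 genes, over 0.1 in 6 of 8 pairs and highest with their own number in 3, short of the rule that every pair exceed 0.1, so the tags were treated as sharing only a number. The 26 and 19 members over the WT and CCR2KO blocks became 15 and 9 with limma-trend on per-cell means, and ranged from 20 to 27 and from 11 to 20 without single tags; the interaction count of 3 became 0 with limma-trend and 2 to 4 without single tags. Summed over classes, the 2 calls between libraries became 0 with at least 30 cells per tag, 14 with the covariate, 10 with limma-trend, 10 with DESeq2, and 0, 16 and 1 within blocks 1, 2 and 3. The 36 WT block calls became 61 with no filter and 97 with DESeq2, the 20 CCR2KO calls 51 and 60. The 8 interaction calls became 5 with at least 30 cells, 5 at resolution 0.8, 2 with the members used for clustering, 1 with doublets kept and 2 with limma-trend. By class, WT block counts without single tags ran from 4 to 12 in activated fibroblast-like (6 with limma-trend), 5 to 6 in AT2-like, 3 to 5 in AT1-like (8 with no filter, 10 with DESeq2) and 4 to 5 in alveolar macrophage-like cells (9 with DESeq2). CCR2KO counts ran from 4 to 6 (14 with DESeq2), 3 to 4 (12 with DESeq2), 3 each time and 3 to 5 in the same order of classes. Interaction counts ran from 0 to 3 in activated fibroblast-like cells (1 with doublets kept, 1 with limma-trend), 0 to 3 in AT1-like cells (0 at resolution 0.8, with the members used, with doublets kept and with limma-trend) and 1 to 3 in alveolar macrophage-like cells (0 with the members used, 0 with doublets kept, 1 with limma-trend). The 2 classical monocyte-like calls became 8 with limma-trend, 0, 1 and 0 within blocks 1, 2 and 3, and 1 to 5 without single tags. The causes were not tested. AT1-like WT blocks and classical monocyte-like cells could not be fitted with at least 30 cells per tag.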
